A study of Mus musculus with 12 samples.

Results

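The 10 genes described here mark the lining of the liver's blood vessels. They were taken by name (Stab1, Stab2, Lyve1, Clec4g, Fcgr2b, Gata4, Kdr, Pecam1, Cd34 and Plvap), and each symbol was matched to 1 Ensembl gene of the GENCODE M21 annotation. All 10 of 10 passed the low-count filter, among 16823 tested genes of the 47729 listed in each file. They fall into 3 classes: 6 genes of sinusoidal identity (Stab1, Stab2, Lyve1, Clec4g, Fcgr2b, Gata4), 2 genes expressed in endothelium of all vessels (Kdr, Pecam1), and 2 capillarization markers (Cd34, Plvap).

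Liver RNA was sequenced from 12 male C57BL/6 mice in 3 groups of 4. Healthy wild-type mice were given vehicle (Naive_vehicle). STAM mice, which had received streptozotocin shortly after birth and were later fed a diet rich in fat to model non-alcoholic steatohepatitis (NASH), were given either vehicle (STAM_vehicle) or I-BET151 at 10 mg/kg by mouth once a day (STAM_treated), from week 6 to week 9 of age. I-BET151 is a small molecule that blocks the bromodomains of the BET proteins. STAM_vehicle and Naive_vehicle mice differed in both streptozotocin and diet, and these cannot be told apart here. By the published methods the vehicle was methylcellulose, while I-BET151 was suspended in hydroxypropyl methylcellulose with Tween. The STAM groups thus differed in carrier as well as drug, and these cannot be told apart either. No healthy mice given I-BET151 were analysed here.

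Liver sinusoidal endothelial cells line the smallest vessels of the liver. Their cytoplasm is pierced by open pores, they lack an organised basement membrane, and they clear waste molecules from blood through scavenger and Fc receptors. In chronic liver disease these cells can close their pores and take on features of ordinary capillary endothelium, a change called capillarization, in which scavenger receptors are lost and markers such as CD34 appear. The transcription factor GATA4 is needed for the sinusoidal programme during development. The comparisons below ask whether the sinusoidal genes fell and the capillary markers rose in STAM livers, and whether I-BET151 moved either class.

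The libraries held 34711229 to 53365596 counted fragments, and the lowest count of any of the 10 genes in any mouse was 56, for Cd34. Levels are given as CPM (counts scaled to a common library total) scaled by TMM factors. STAM_treated mouse 3 stood apart from the other 11 mice. The TMM scaling factor of its library was 1.61, and those of the others lay between 0.77 and 1.11, its 10 most abundant genes took 7.95% of its counts against 13.4% to 18.1%, and its 5 hepatocyte markers summed to 17108 CPM against 42733 CPM or more. Where leaving this mouse out ended or made a call of a gene named here, or moved a fold change of the 10 genes in STAM_treated livers by more than 1.5 times, the value without it is given as well. In whole liver, fewer endothelial cells and less RNA per endothelial cell cannot be told apart.

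All 10 genes were detected in every mouse, so the livers held the endothelial transcripts that the label names. Compared per kilobase of annotated exon in Naive_vehicle livers, Plvap was the highest at 21 ± 2.8 CPM per kb (SD, n = 4), followed by Clec4g at 18.3 ± 4.1 and Lyve1 at 13.7 ± 2.4. Fcgr2b, Stab2, Stab1, Kdr, Gata4 and Pecam1 followed between 10.8 and 5.35 CPM per kb. Along this order the range over mice of each gene overlapped with that of the next. This comparison does not use that all genes were measured in the same livers, so it does not show that neighbours were equal. The exception to this overlap was Cd34, at 0.308 ± 0.075 CPM per kb, whose mice lay below those of Pecam1. In STAM_vehicle livers Kdr moved from place 7 to place 9 of this order and Lyve1 from place 3 to place 2. Cd34 was last in all 3 groups.

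**Figure D1:**
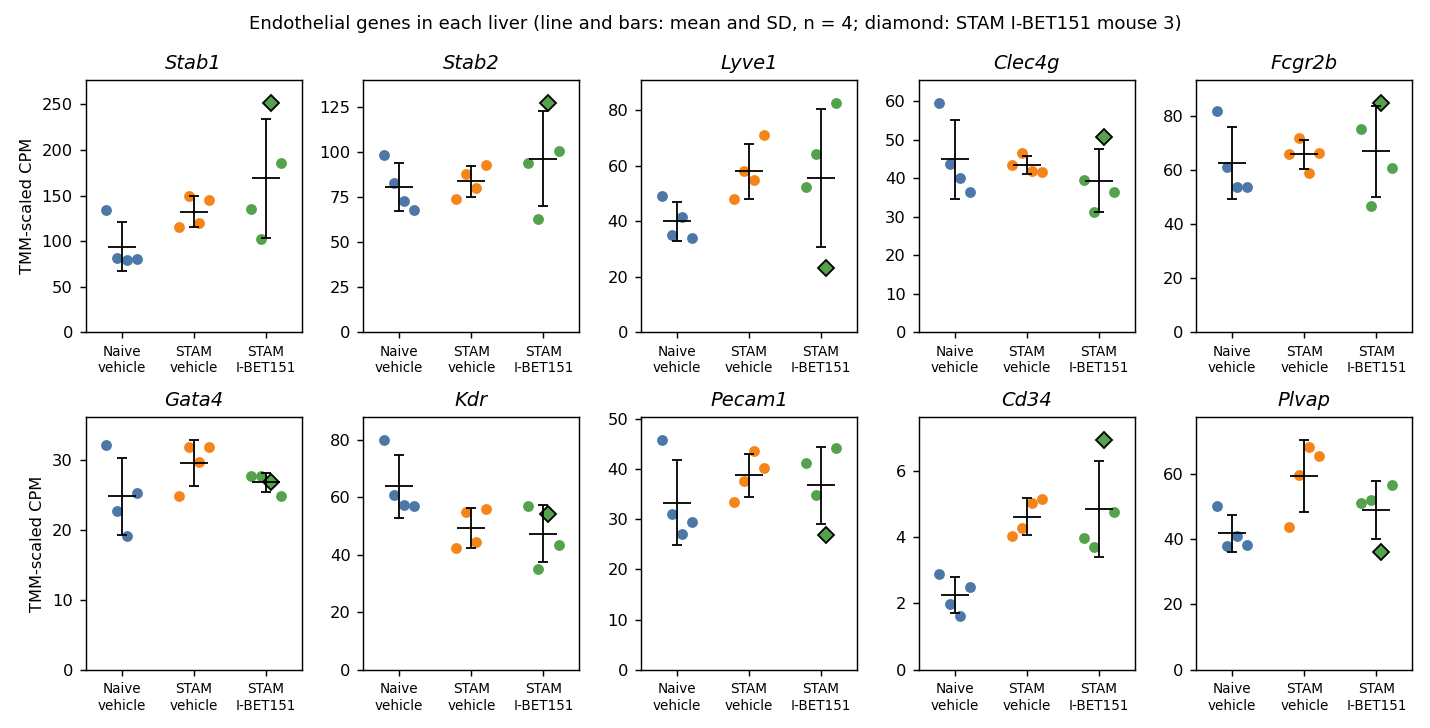
TMM-scaled CPM (vertical axes, from 0) of the 10 genes in each of the 12 livers, by group, with the mean and SD of 4 mice as a line and bars and STAM_treated mouse 3 as an outlined diamond. The STAM groups lie above the Naive_vehicle mice without overlap for Cd34 and below them for Kdr, and STAM_treated mouse 3 is the highest of the 12 mice for Stab1, Stab2, Fcgr2b and Cd34 and the lowest for Lyve1, Pecam1 and Plvap.

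In STAM_vehicle against Naive_vehicle livers, 1 of the 10 genes was called at an adjusted p of at most 0.05 by the quasi-likelihood test of edgeR, with p-values adjusted by Benjamini-Hochberg over all tested genes, and it was the capillarization marker Cd34, which was higher in STAM. Across all tested genes 7.1% were called, 5.72% as higher and 1.38% as lower. None of the 6 sinusoidal identity genes was called, none had an unadjusted p under 0.05, and DESeq2 called none of them. Their median log2 fold change was 0.16 beside 0.01 for all tested genes. CPM values of the groups did not overlap for 2 of the 10 genes (Cd34 higher, Kdr lower), where 26.4% of all tested genes did not overlap.

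In STAM_treated against Naive_vehicle livers, which shares the Naive_vehicle mice with the comparison above, 2 of 10 genes were called, Cd34 and Stab1, both higher. The share over all tested genes was 15.1%, with 9.88% higher and 5.25% lower. Again Cd34 and Kdr were the 2 genes whose groups did not overlap, beside 19.8% of all tested genes. Against STAM_vehicle, I-BET151 gave no call among the 10 genes at an adjusted p of at most 0.1, none had an unadjusted p under 0.05, DESeq2 called none, and no gene's groups were without overlap. The corresponding shares over all tested genes were 0.351% called and 5.04% without overlap.

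**Figure D2:**
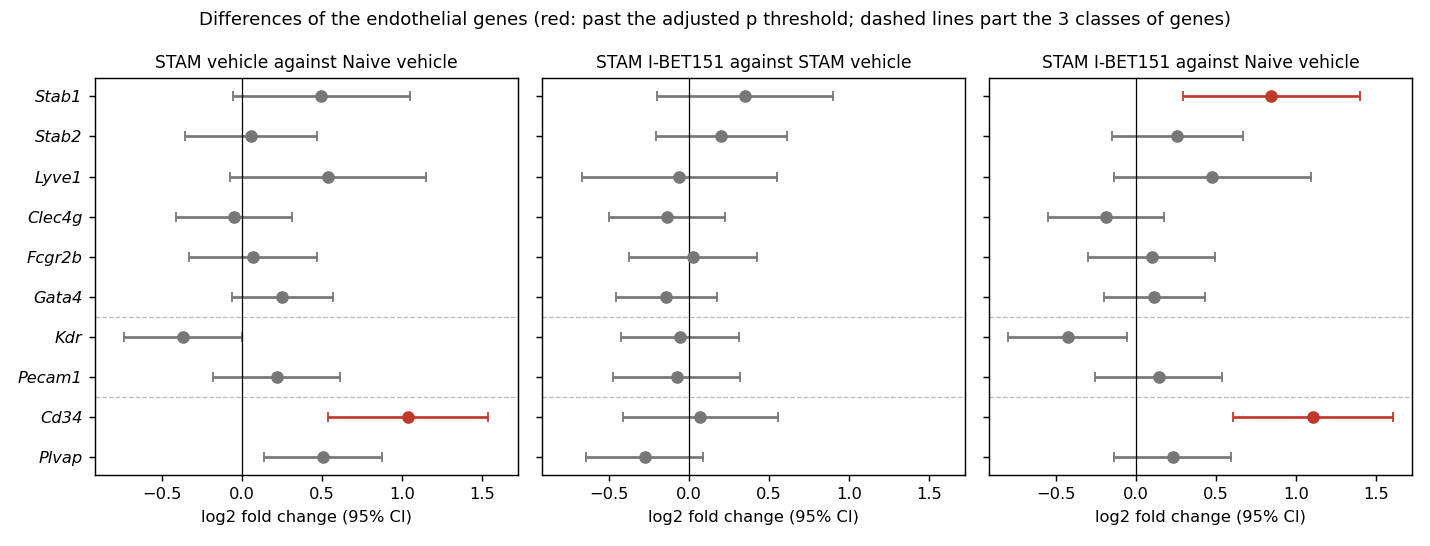
Log2 fold changes (horizontal axes) with 95% confidence intervals of the 10 genes in the 3 comparisons, from the edgeR fit over all 12 mice. Red points passed the adjusted p threshold: Cd34 at 1.03 and 1.11 against Naive_vehicle, and Stab1 at 0.84 in STAM_treated livers.

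Cd34 (chr1:194938819-194961279, plus strand, mm10) encodes a sialomucin on the surface of capillary endothelium, of blood progenitors and of some fibroblasts, and it is sparse on healthy sinusoids. It measured 2.87, 1.99, 1.63 and 2.5 CPM in the 4 Naive_vehicle mice and 4.01, 4.27, 5.03 and 5.16 CPM in the STAM_vehicle mice. The lowest STAM_vehicle mouse was thus above the highest healthy mouse. The group means were 2.25 ± 0.55 and 4.62 ± 0.56 CPM (SD, n = 4 each), a log2 fold change of 1.03 (SE 0.23, edgeR adjusted p = 0.017). STAM_treated mice held 3.98, 3.71, 6.92 and 4.76 CPM, again all above the healthy mice, with mouse 3 the highest. Against Naive_vehicle the log2 fold change was 1.11 (SE 0.23, edgeR adjusted p = 0.00797), and without STAM_treated mouse 3 it was 0.87 (edgeR adjusted p = 0.00877). Between the STAM groups it was 0.07, with a 95% confidence interval of -0.41 to 0.55.

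The call of Cd34 in STAM_vehicle livers was lost when Naive_vehicle mouse 2 or 3 or STAM_vehicle mouse 3 or 4 was left out, with edgeR adjusted p from 0.0546 to 0.0631 and log2 fold changes from 0.90 to 0.99, while the call in STAM_treated livers held whichever of the 12 mice was left out. Sequencing lanes differed between the groups, and the values within shared lanes are given here as a description. In lane 2, which held 1 mouse of each group, Cd34 was 2.87 CPM in the Naive_vehicle mouse, 5.16 CPM in the STAM_vehicle mouse and 4.76 CPM in the STAM_treated mouse. In lane 5 it was 2.5 CPM in the Naive_vehicle mouse and 3.71 CPM in the STAM_treated mouse. Every STAM mouse was above every healthy mouse for Cd34, so no such pair could have gone the other way. These pairs therefore cannot tell lane from group. Lanes 4 and 8 held mice of 1 group only, and a fit with lane as a covariate left no gene of the 10 called. In that fit the log2 fold change of Cd34 was 0.63 (edgeR adjusted p = 0.646) in STAM_vehicle livers. It was 0.72 (edgeR adjusted p = 0.29) in STAM_treated livers.

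The start region of Cd34 is printed because this gene carried the clearest difference, and those of Stab1 and Stab2 because these 2 related scavenger receptors are compared with each other further on. The windows are from RefSeq on GRCm38.p6, each 300 bases from 250 before to 50 after the transcript start, read 5′ to 3′ along the gene's own strand, and capitals mark matches to AGGAAG or its reverse complement CTTCCT, a core sequence bound by ETS factors. They lie at chr1:194938571-194938870 (plus strand) for Cd34, at chr14:31168592-31168891 (minus strand) for Stab1 and at chr10:87007893-87008192 (minus strand) for Stab2.
Cd34: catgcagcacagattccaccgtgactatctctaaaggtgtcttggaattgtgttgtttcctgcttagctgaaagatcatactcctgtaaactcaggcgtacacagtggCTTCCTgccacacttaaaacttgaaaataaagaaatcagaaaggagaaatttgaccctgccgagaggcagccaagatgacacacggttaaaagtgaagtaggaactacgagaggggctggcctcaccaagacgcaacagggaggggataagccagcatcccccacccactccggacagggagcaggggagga
Stab1: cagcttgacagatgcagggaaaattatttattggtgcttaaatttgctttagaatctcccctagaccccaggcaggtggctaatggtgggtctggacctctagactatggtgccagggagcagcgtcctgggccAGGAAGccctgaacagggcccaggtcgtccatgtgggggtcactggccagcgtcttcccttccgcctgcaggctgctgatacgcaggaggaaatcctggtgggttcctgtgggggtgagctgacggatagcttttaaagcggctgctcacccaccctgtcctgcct
Stab2: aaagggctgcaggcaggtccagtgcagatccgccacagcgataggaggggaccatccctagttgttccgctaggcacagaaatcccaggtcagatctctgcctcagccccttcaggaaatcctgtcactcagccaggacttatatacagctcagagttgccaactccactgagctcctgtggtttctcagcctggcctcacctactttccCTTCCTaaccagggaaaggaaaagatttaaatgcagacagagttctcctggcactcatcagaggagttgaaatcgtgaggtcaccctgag

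RefSeq windows were matched for 6 of the 10 genes (Cd34, Stab1, Stab2, Clec4g, Fcgr2b and Kdr). AGGAAG on either strand was found in 4 of the 6, all but Fcgr2b and Kdr, and in 35.4% of 32851 windows of the same length. AGATAA or its reverse complement TTATCT, a sequence bound by GATA factors, was in none of the 6 and in 11.2% of all windows. These matches describe letters in a window and were not tested for binding.

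Plvap (chr8:71497765-71511752, minus strand) encodes the protein of the diaphragms that span pores and caveolae of capillaries, and it is counted as a capillarization marker because adult sinusoidal pores carry no diaphragm. Its RNA was nevertheless abundant in healthy livers, the highest of the 10 genes at 21 CPM per kb. A rise of Plvap here therefore does not mark its appearance, and the cells that made it were not tested. The Naive_vehicle mice held 50, 38.0, 40.8 and 38.2 CPM and the STAM_vehicle mice 43.6, 59.6, 68.3 and 65.5 CPM. STAM_vehicle mouse 1 lay within the healthy range and the other 3 mice above it. The log2 fold change of 0.51 (SE 0.17) did not pass (edgeR adjusted p = 0.0924), and it did pass without STAM_treated mouse 3, whose values enter the shared estimate of spread (0.48, edgeR adjusted p = 0.0222), and without STAM_vehicle mouse 1 (0.62, edgeR adjusted p = 0.0437). STAM_treated mice held 51.0, 51.9, 36.2 and 56.6 CPM, where mouse 3 was the lowest of all 12 mice. Against STAM_vehicle this was a log2 fold change of -0.28 (95% confidence interval -0.64 to 0.09).

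Of the sinusoidal genes, Stab1 (chr14:31139013-31168641, minus strand) encodes stabilin-1, a scavenger receptor that macrophages make as well as sinusoidal endothelium. It was 135, 81.5, 79.3 and 80.7 CPM in the Naive_vehicle mice, 116, 150, 120 and 145 CPM in the STAM_vehicle mice, and 135, 103, 252 and 186 CPM in the STAM_treated mice. Without Naive_vehicle mouse 1 both STAM groups would lie wholly above the healthy mice, but with it they overlapped. The log2 fold change was 0.49 (SE 0.26, edgeR adjusted p = 0.281) in STAM_vehicle and 0.84 (SE 0.26, edgeR adjusted p = 0.0416) in STAM_treated livers. The latter was 0.58 (edgeR adjusted p = 0.0767) without STAM_treated mouse 3, and the call survived the omission of 3 of the 12 mice in turn (without Naive_vehicle mouse 1, STAM_treated mouse 1 or STAM_treated mouse 2), with edgeR adjusted p from 0.0529 to 0.122 in the other 9. DESeq2 called it (0.80, adjusted p = 0.0152).

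Stab2 (chr10:86841198-87008025, minus strand) encodes stabilin-2, the main receptor by which the sinusoid clears hyaluronan, and few other cells of the liver make it. Its levels were 98.6, 83.3, 73.0 and 67.9 CPM in Naive_vehicle, 74.0, 88.0, 80.4 and 93.2 CPM in STAM_vehicle, and 94.3, 63.3, 128 and 101 CPM in STAM_treated mice. All 3 groups overlapped. The log2 fold change was 0.06 in STAM_vehicle (95% confidence interval -0.35 to 0.47) and 0.26 in STAM_treated livers (-0.15 to 0.67), and the latter was 0.0805 without STAM_treated mouse 3, the highest of the 12. A call of a fall or a rise was made under none of the 21 alternative fits of either comparison.

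Lyve1 (chr7:110850607-110863239, minus strand) encodes a hyaluronan receptor of sinusoids and lymphatic vessels. It was 48.9, 35.1, 41.7 and 34.0 CPM in Naive_vehicle mice and 47.8, 57.9, 54.7 and 71.1 CPM in STAM_vehicle mice, with only STAM_vehicle mouse 1 inside the healthy range. The log2 fold change of 0.54 (SE 0.29) did not pass (edgeR adjusted p = 0.295). The STAM_treated mice held 52.1, 64.3, 23.2 and 82.6 CPM, that is, 3 mice above every healthy mouse and mouse 3 below every other mouse of the series. Without that mouse Lyve1 was called in both STAM groups against Naive_vehicle, at 0.52 (edgeR adjusted p = 0.0376) in STAM_vehicle and 0.72 (edgeR adjusted p = 0.0126) in STAM_treated livers.

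Clec4g (chr8:3707064-3720651, minus strand) encodes LSECtin, a lectin of the sinusoid and of lymph node endothelium, and its levels were 59.6, 43.7, 40.0 and 36.5 CPM in Naive_vehicle mice. It was 43.5, 46.6, 42.0 and 41.7 CPM in STAM_vehicle and 39.4, 31.2, 50.6 and 36.4 CPM in STAM_treated mice. The groups overlapped, and the log2 fold changes against Naive_vehicle were -0.05 (95% confidence interval -0.41 to 0.31) and -0.19 (-0.55 to 0.17), the latter -0.344 without STAM_treated mouse 3.

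Fcgr2b (chr1:170958617-170976547, minus strand), the inhibitory Fc receptor that takes up immune complexes on sinusoids and is also made by B cells and macrophages, was 81.8, 61.2, 53.6 and 53.6 CPM in Naive_vehicle mice. STAM_vehicle mice held 66.0, 71.8, 58.9 and 66.2 CPM and STAM_treated mice 75.2, 46.6, 84.8 and 60.8 CPM. No group was set apart, with log2 fold changes of 0.07 (-0.33 to 0.47) and 0.10 (-0.30 to 0.50) against Naive_vehicle, the latter -0.0503 without STAM_treated mouse 3.

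Gata4 (chr14:63198922-63271692, minus strand), the sinusoidal transcription factor, which other liver cells also make, varied little among STAM_treated mice. Its levels were 32.1, 22.7, 19.2 and 25.3 CPM in Naive_vehicle, 24.9, 31.9, 29.7 and 31.8 CPM in STAM_vehicle, and 27.8, 27.7, 26.8 and 24.9 CPM in STAM_treated mice. The groups overlapped, with log2 fold changes of 0.25 (-0.06 to 0.57) and 0.11 (-0.20 to 0.43) against Naive_vehicle.

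Of the genes of all vessels, Kdr (chr5:75932827-75978458, minus strand) encodes the main signalling receptor for VEGF-A. It was 80.0, 60.9, 57.4 and 57.0 CPM in Naive_vehicle mice, 42.4, 54.8, 44.6 and 55.9 CPM in STAM_vehicle mice, and 56.9, 35.1, 54.2 and 43.5 CPM in STAM_treated mice. Every STAM mouse was below every healthy mouse, although the nearest pair, STAM_treated mouse 1 and Naive_vehicle mouse 4, were all but equal. The log2 fold change was -0.37 (SE 0.17, edgeR adjusted p = 0.224) in STAM_vehicle and -0.43 (SE 0.17, edgeR adjusted p = 0.103) in STAM_treated livers, and Kdr passed the threshold in none of the 21 alternative fits of either comparison.

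Pecam1 (chr11:106654217-106750628, minus strand), a junction protein of endothelium and of some leukocytes, measured 45.8, 30.9, 27.1 and 29.5 CPM in Naive_vehicle mice. It was 33.5, 37.7, 43.7 and 40.1 CPM in STAM_vehicle and 41.1, 34.9, 26.8 and 44.2 CPM in STAM_treated mice. Naive_vehicle mouse 1 was the highest of the 12 and STAM_treated mouse 3 the lowest. The log2 fold changes were 0.22 (-0.18 to 0.61) and 0.14 (-0.26 to 0.54) against Naive_vehicle, the latter 0.254 without STAM_treated mouse 3.

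Between STAM_treated and STAM_vehicle livers the intervals show how large an effect of I-BET151 with its carrier on each gene these mice leave room for. The log2 fold change was 0.35 for Stab1 (95% confidence interval -0.20 to 0.90), 0.20 for Stab2 (-0.21 to 0.61) and -0.06 for Lyve1 (-0.67 to 0.55), the 3 widest of the sinusoidal class. Those of Clec4g (-0.14, -0.50 to 0.22), Fcgr2b (0.02, -0.37 to 0.42) and Gata4 (-0.14, -0.46 to 0.17) were narrower. Kdr (-0.06, -0.43 to 0.31) and Pecam1 (-0.08, -0.47 to 0.32) were likewise centred near 0. No interval reached a log2 value of 1 in either direction. Without STAM_treated mouse 3, which was the highest of all mice for Stab1 and Stab2, the fold changes fell to 0.102 for Stab1 and 0.0463 for Stab2, and to -0.149 for Plvap. They were 0.205 for Lyve1, 0.0572 for Pecam1, -0.0997 for Fcgr2b and -0.145 for Cd34, each of the opposite sign to the value with it, and -0.273 for Clec4g and -0.119 for Kdr. None of these passed the threshold.

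To set the 2 classes side by side in each mouse, the mean log2 CPM of the 6 sinusoidal identity genes was subtracted from that of Cd34 and Plvap, a difference in which library scaling largely cancels. It was -2.5, -2.49, -2.49 and -2.22 in the Naive_vehicle mice and -2.06, -2.04, -1.64 and -1.84 in the STAM_vehicle mice. In the STAM_treated mice it was -2.10, -1.86, -2.07 and -2.01. All 8 STAM mice were above all 4 healthy mice, while the STAM groups overlapped. The group means were -2.42 ± 0.14, -1.90 ± 0.20 and -2.01 ± 0.11 (SD, n = 4 each). These genes were chosen with earlier results of these data known, so the index is a description with no test. The sinusoidal mean alone overlapped between the groups, since Naive_vehicle mouse 1, at 6.10, was the highest of all mice and the other healthy mice, at 5.52 to 5.63, were the 3 lowest. The healthy and STAM mice were thus parted by this difference, not by the sinusoidal mean. The mean of Cd34 and Plvap alone parted them too, at 3.05 to 3.59 in the healthy and 3.74 to 4.22 in the STAM mice. Of these 2 capillary markers, only Cd34 alone was without overlap between healthy and STAM mice, and Plvap alone overlapped. In STAM_vehicle livers both added to the higher mean, with log2 fold changes of 1.03 for Cd34 and 0.51 for Plvap. The separation is thus not shown by each marker. STAM_treated mouse 3 was within the range of its group in this difference (-2.07), although it stood apart in single genes. Its Cd34 was the highest and its Plvap the lowest of the 12 mice, which offset each other in the mean.

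**Figure D3:**
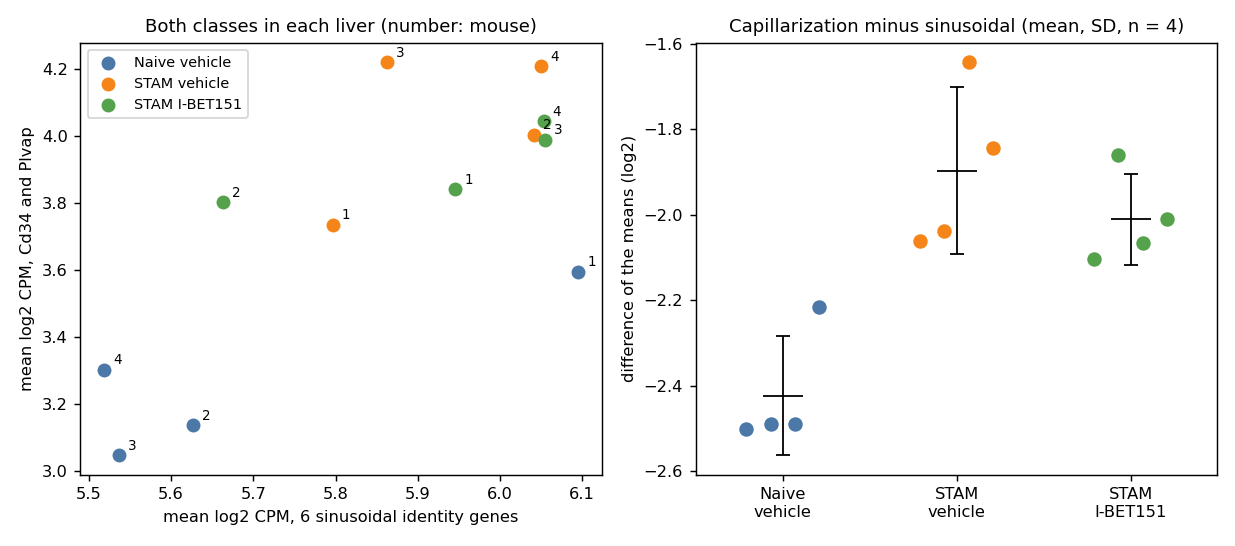
Left, mean log2 CPM of Cd34 and Plvap (vertical) against that of the 6 sinusoidal identity genes (horizontal) in each of 12 livers, numbered by mouse. Right, the difference of the 2 means by group with mean and SD of 4 mice: Naive_vehicle mice lie between -2.5 and -2.22, and the 8 STAM mice between -2.10 and -1.64.

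STAM_treated mouse 3 split the 10 genes rather than shifting them together. Among the 12 mice it was the highest for Stab1, Stab2, Fcgr2b and Cd34, in place 2 for Clec4g, and the lowest for Lyve1, Pecam1 and Plvap. Stab1 and Stab2, at 252 and 128 CPM, were thus at their highest in the same liver where Lyve1 was at its lowest, 23.2 CPM. The nuclear-retained RNAs Malat1 and Neat1 together reached 4749.5 CPM in this mouse, against 816 to 2091 CPM in the other 11. The 8 Kupffer cell and macrophage markers summed to 223.5 CPM there, the lowest of the 8 STAM mice. The part of these differences in the gene levels was not tested.

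The wider endothelial programme was read from 43 other genes in 4 lists, of which 41 passed the low-count filter. Of 13 other sinusoidal genes, 1 was called lower and none higher in STAM_vehicle against Naive_vehicle livers, beside 1.38% and 5.72% of all tested genes. In STAM_treated livers 2 were called lower and none higher, beside 5.25% and 9.88%. Their median log2 fold changes were 0.02 and -0.14, beside 0.01 and 0.06 for all tested genes. In each comparison with Naive_vehicle 4 of the 13 had an unadjusted edgeR p under 0.05, in both directions. DESeq2 called 1 of the 13 in STAM_vehicle and 3 in STAM_treated livers. Bmp2, which with Bmp6 is the signal by which sinusoidal cells set hepcidin and so iron balance, measured 32.3, 21.7, 17.7 and 18.2 CPM in the Naive_vehicle mice. It was 10.5 to 16.5 CPM in the STAM_vehicle mice and 14.3 to 14.7 CPM in the STAM_treated mice, all below the healthy mice. The log2 fold changes were -0.71 (SE 0.19, edgeR adjusted p = 0.0359) and -0.64 (SE 0.19, edgeR adjusted p = 0.0338). The call of Bmp2 in STAM_vehicle livers was lost without Naive_vehicle mouse 1 or 2 or STAM_vehicle mouse 1, 3 or 4 (edgeR adjusted p up to 0.119), and in STAM_treated livers without Naive_vehicle mouse 1 or 2 or STAM_treated mouse 1 or 4 (up to 0.0783). Leaving out Naive_vehicle mouse 1 and STAM_treated mouse 3 together, an alternative chosen after seeing the data, gave -0.48 (edgeR adjusted p = 0.0223) and -0.41 (edgeR adjusted p = 0.0608). Bmp6 was 5.52 to 7.24 CPM in Naive_vehicle mice and 2.25 to 4.16 CPM in STAM_treated mice (log2 fold change -0.90, SE 0.22, edgeR adjusted p = 0.0161), and 3.31 to 5.66 CPM in STAM_vehicle mice (-0.43, edgeR adjusted p = 0.263). The difference in Bmp6 between the STAM groups did not pass (-0.47, edgeR adjusted p = 0.576). The zonation signals Wnt2, Wnt9b and Rspo3 and the receptor Mrc1 were not called in any comparison.

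None of 15 other genes of all endothelium (among them Cdh5, Tek, Tie1, Flt1, Eng and Erg) was called by edgeR in any of the 3 comparisons with all 12 mice. In STAM_vehicle against Naive_vehicle livers, none of the 15 had an unadjusted p under 0.05 and DESeq2 called none, whereas 2 had such a p and DESeq2 called 1 in STAM_treated livers. The nearest to a call in STAM_vehicle were the adhesion protein Icam2 (0.44, edgeR adjusted p = 0.266) and the secreted protein Egfl7 (0.58, edgeR adjusted p = 0.289), and in STAM_treated livers the transcription factor Erg (0.34, edgeR adjusted p = 0.113) and the phosphatase Ptprb (-0.30, edgeR adjusted p = 0.132). Without STAM_treated mouse 3 both of the latter were called, Erg at 0.389 (edgeR adjusted p = 0.0443) and Ptprb at -0.374 (edgeR adjusted p = 0.037). Averaged over the 15 genes, log2 CPM was 3.79 ± 0.33 in Naive_vehicle, 4.00 ± 0.05 in STAM_vehicle and 3.90 ± 0.07 in STAM_treated mice, and the wide healthy range of 3.50 to 4.25 held all 8 STAM mice. The top of that range was Naive_vehicle mouse 1 alone, and all 8 STAM mice lay above the other 3 healthy mice, the highest of which was at 3.78. The overlap of the groups in these shared genes thus rested on 1 mouse.

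The 10 genes were also scaled to the geometric mean count of this panel in each mouse, an alternative chosen after seeing the data. The absence of calls does not show that the panel was stable. In STAM_vehicle livers 11 of its genes had log2 fold changes above 0 and 4 below. Without Naive_vehicle mouse 1 and STAM_treated mouse 3, Icam2 (0.615, edgeR adjusted p = 0.048) and Egfl7 (0.778, edgeR adjusted p = 0.00803) were called there. Erg (0.492, edgeR adjusted p = 0.0141) was then called in STAM_treated livers. Panel scaling moved the median log2 fold change of all tested genes by -0.24 in STAM_vehicle and by -0.13 in STAM_treated against Naive_vehicle livers, and by 0.11 between the STAM groups. Cd34 remained called against the panel, at 0.84 (edgeR adjusted p = 0.0408) and 1.01 (edgeR adjusted p = 0.00865), where 4.59% and 9.24% of all tested genes were called. Stab1 in STAM_treated livers did not pass (0.75, edgeR adjusted p = 0.0583). Kdr was -0.58 (edgeR adjusted p = 0.099) and -0.53 (edgeR adjusted p = 0.0937), and Plvap in STAM_vehicle livers was 0.28 (edgeR adjusted p = 0.377). Relative to the panel, the mice of STAM_vehicle and Naive_vehicle did not overlap for Stab1 and Cd34 (higher) or for Clec4g and Kdr (lower), that is, 4 of 10 genes beside 13.8% of all tested genes. Cd34 was at -2.76 to -2.28 against the panel in healthy mice and at -1.91 to -1.65 in STAM_vehicle mice, in log2 units.

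Of 11 genes of continuous and large vessels, 9 were tested, Apln and Aplnr being below the low-count filter. Angpt2, the ligand that destabilises vessels, was the 1 gene called in STAM_vehicle livers, with 0.863 to 1.70 CPM in Naive_vehicle and 1.68 to 3.62 CPM in STAM_vehicle mice (log2 fold change 1.03, SE 0.29, edgeR adjusted p = 0.0484). That call held in 4 of 12 fits that left out 1 mouse, and was lost with edgeR adjusted p from 0.0521 to 0.162 without any 1 of Naive_vehicle mice 2, 3 and 4, STAM_vehicle mice 2, 3 and 4, and STAM_treated mice 1 and 4. It was lost as well with panel scaling (0.834, edgeR adjusted p = 0.0951) and with RLE scaling (1.02, edgeR adjusted p = 0.0531). In STAM_treated mice Angpt2 was 1.75 to 3.19 CPM and missed the threshold (0.91, edgeR adjusted p = 0.0503). Vwf, which encodes von Willebrand factor and is low in sinusoids, was 25.3, 13.5, 9.83 and 12.7 CPM in Naive_vehicle, 21 to 31.2 CPM in STAM_vehicle and 20 to 41.8 CPM in STAM_treated mice. It was called in STAM_treated livers (1.00, SE 0.28, edgeR adjusted p = 0.0294) and not in STAM_vehicle livers (0.78, SE 0.28, edgeR adjusted p = 0.113), and its call was lost without Naive_vehicle mouse 2, 3 or 4 or STAM_treated mouse 1 or 4 (edgeR adjusted p from 0.0631 to 0.0926). Between the STAM groups Vwf differed by 0.22 (edgeR adjusted p = 0.887).

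The 4 adhesion genes that recruit leukocytes were read because activated endothelium carries them. Selp, which encodes P-selectin, was 2.09 to 3.51 CPM in Naive_vehicle, 3.80 to 5.11 CPM in STAM_vehicle and 4.67 to 6.30 CPM in STAM_treated mice, so all STAM mice were above all healthy mice. The log2 fold changes were 0.76 (SE 0.19, edgeR adjusted p = 0.0286) and 1.07 (SE 0.19, edgeR adjusted p = 0.00321). Icam1, made by endothelium and by many other cells once inflamed, rose by 0.82 (SE 0.21, edgeR adjusted p = 0.0318) and 0.99 (SE 0.21, edgeR adjusted p = 0.00839) on the same scale. It was 10.9 to 18.2 CPM in Naive_vehicle, 18.0 to 28.5 CPM in STAM_vehicle and 18.0 to 31.3 CPM in STAM_treated mice. Both STAM groups thus overlapped with the healthy mice, through Naive_vehicle mouse 1. In STAM_vehicle livers both calls were lost without any 1 of Naive_vehicle mice 2, 3 and 4 and STAM_vehicle mice 2, 3 and 4 (edgeR adjusted p from 0.0599 to 0.113), while in STAM_treated livers both held in all 12 such fits. With lane as covariate both calls were lost in both STAM groups. In STAM_treated livers that fit gave 0.84 for Selp (edgeR adjusted p = 0.178) and 0.64 for Icam1 (edgeR adjusted p = 0.287). Scaling to the panel of 15 genes of all endothelium also ended both calls in STAM_vehicle livers. It gave 0.567 for Selp (edgeR adjusted p = 0.118) and 0.635 for Icam1 (edgeR adjusted p = 0.07). Vcam1 was 1.08 (edgeR adjusted p = 0.0545) in STAM_vehicle livers, and Sele, at 0.359 CPM or less in every mouse, did not pass in either group. None of the 4 was called between the STAM groups, where the smallest p belonged to Selp (0.31, edgeR adjusted p = 0.685) and Vcam1 (-0.36, edgeR adjusted p = 0.812, and -0.118 without STAM_treated mouse 3).

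**Figure D4:**
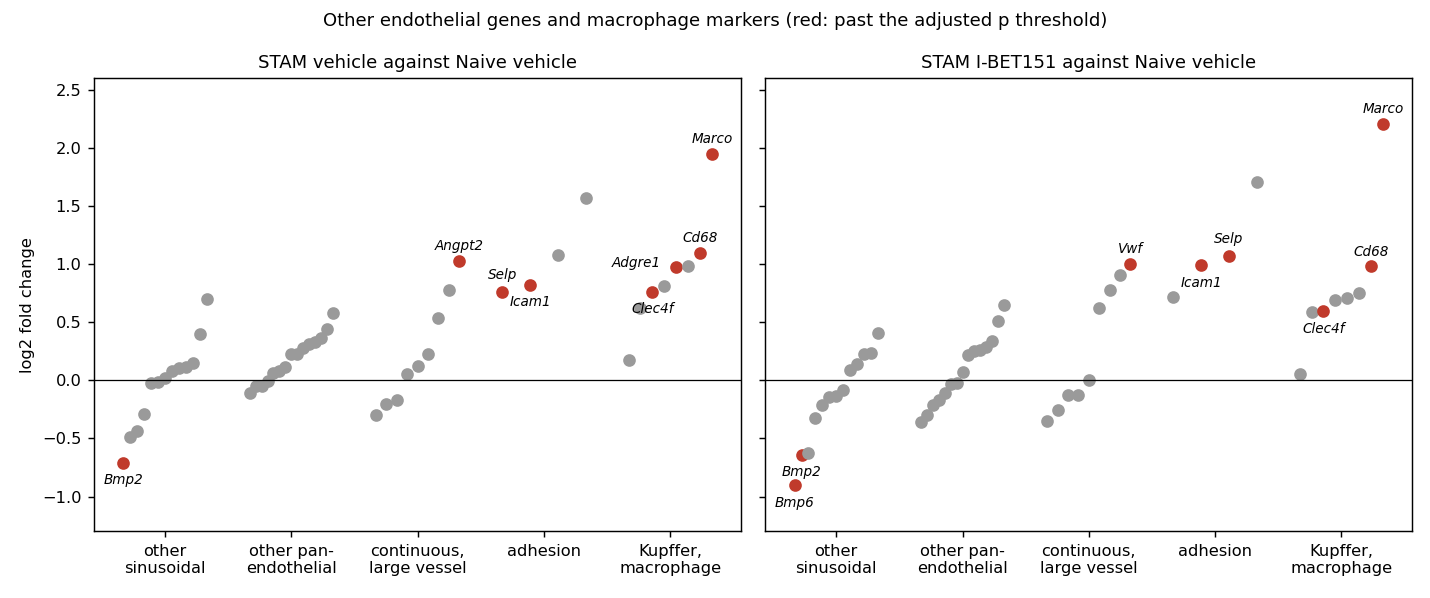
Log2 fold changes (vertical axis) of the tested genes of 4 other endothelial lists and of 8 Kupffer cell and macrophage markers, each point 1 gene ordered by value within its list, in STAM vehicle (left) and STAM I-BET151 (right) against Naive vehicle livers. Red points passed the adjusted p threshold of 0.05: none of the 15 other pan-endothelial genes did, while Bmp2 was lower and Selp and Icam1 were higher in both.

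Markers of other liver cells moved with some of these results. Of 8 Kupffer cell and macrophage markers, 4 were called higher in STAM_vehicle (Cd68, Clec4f, Marco and Adgre1) and 3 in STAM_treated livers (Cd68, Marco and Clec4f). The shares called higher over all tested genes were 5.72% and 9.88%. The summed level of the 8 markers was 188.5 to 269.7 CPM in Naive_vehicle, 308.9 to 595.8 CPM in STAM_vehicle and 223.5 to 519.6 CPM in STAM_treated mice. Cd68 gave log2 fold changes of 1.1 and 0.98 in the 2 STAM groups, and both calls held whichever of the 12 mice was left out. Both were lost with lane as covariate (edgeR adjusted p = 0.473 and 0.258). The call of Clec4f in STAM_vehicle livers was lost without Naive_vehicle mouse 2, 3 or 4 or STAM_vehicle mouse 3 or 4 (edgeR adjusted p up to 0.103). Stab1, Fcgr2b, Lyve1, Icam1 and Vcam1 can be made by macrophages, and the part of these cells in their levels was not tested. In STAM_treated mouse 3, where Stab1 was highest, the macrophage sum was within the Naive_vehicle range, but the single markers were split. Cd68 (16.8 CPM against at most 12.4 CPM), Clec4f and Marco were above every healthy mouse. Cd5l (49.4 CPM against at least 53.5 CPM), Vsig4, C1qa and Timd4 were below every healthy mouse, and Adgre1 was within their range. B cell markers, 4 genes that bear on Fcgr2b, summed to 1.14 to 4.06 CPM over all mice and none was called. The 3 lymphatic markers (Pdpn, Prox1, Mmrn1), which bear on Lyve1, were not called by edgeR in any comparison. Nearly all of their summed level was Prox1, which hepatocytes also make (169 CPM on average in Naive_vehicle mice), so the sum does not describe lymphatic vessels. Pdpn and Mmrn1 were at 0.268 and 0.91 CPM on average in Naive_vehicle mice, and Mmrn1 at 1.78 CPM in STAM_vehicle mice (log2 fold change 0.95, edgeR adjusted p = 0.286). Of 6 stellate cell markers, Pdgfrb was called higher (0.85) and Reln lower (-0.65) in STAM_treated livers, and of 4 cholangiocyte markers Krt7 was called higher there (0.82). The call of Pdgfrb held in 5 of 12 fits that left out 1 mouse and was lost without Naive_vehicle mouse 2, 3 or 4, STAM_vehicle mouse 2 or 4, or STAM_treated mouse 1 or 3 (edgeR adjusted p up to 0.113), with 0.556 (edgeR adjusted p = 0.0765) without STAM_treated mouse 3. That of Reln was lost without Naive_vehicle mouse 2, 3 or 4 or STAM_treated mouse 1 or 4 (up to 0.0791), and that of Krt7 without Naive_vehicle mouse 1, 2 or 3 or STAM_treated mouse 1 (up to 0.0878).

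The 5 hepatocyte markers (Alb, Ttr, Apoa1, Tat, Serpina1c) gave no edgeR call in any comparison, but all 5 were lower in value in both STAM groups, with median log2 fold changes of -0.62 in STAM_vehicle and -0.83 in STAM_treated against Naive_vehicle livers. For 4 of the 5 the STAM_vehicle and Naive_vehicle mice did not overlap, and for 3 of the 5 the STAM_treated and Naive_vehicle mice did not. The shares without overlap over all tested genes were 26.4% and 19.8%. Their summed level was 92999 to 110800 CPM in Naive_vehicle and 42733 to 65462 CPM in STAM_vehicle mice, and in STAM_treated mice it was 17108 CPM in mouse 3 and 62947 to 77151 CPM in the other 3. DESeq2 called 2 of the 5 in STAM_treated against Naive_vehicle livers. The 5 hepatocyte markers were thus lower in sum in the same livers where Cd34 was higher, and the part of this in the endothelial differences was not tested. The 3 T cell markers also gave no edgeR call, and DESeq2 called 1 of them between the STAM groups. They summed to 1.75 to 2.3 CPM in STAM_vehicle and 0.758 to 1.31 CPM in STAM_treated mice. No marker of any of these lists was at 0 in every mouse.

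For Stab2, the 5 genes most alike over the 12 mice among 13140 tested genes with a mean of at least 1 CPM were Timeless (Pearson r = 0.917), Ctdspl (0.912), Prss23 (0.911), Art4 (0.909) and Nxpe3 (0.908). None of them is among the endothelial genes listed here. Without STAM_treated mouse 3, where Stab2 was highest, r was 0.837 to 0.914 for these 5. For Plvap they were Rgs10 (r = 0.954), C1qa (0.937), Wars (0.925), Clic1 (0.92) and Tubb6 (0.92), and C1qa is 1 of the macrophage markers above. Without that mouse r was 0.904 to 0.952. These correlations describe 12 mice that share libraries, depth scaling and group differences, and they carry no p.

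Of the 10 genes, 5 share exon bases with a gene on the opposite strand (Stab1 with Nt5dc2, Stab2 with Gm16268, Clec4g with Gm16553, Fcgr2b with Gm38204 and Cd34 with Gm16897). The library kit keeps strand, but the strand setting of the counting is not given in the sources used here, so reads of those partners could enter these counts.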

How the data were processed

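Polyadenylated liver RNA of 12 mice (4 per group) was prepared with a stranded kit and sequenced as paired-end reads. Per the labels and the published methods, STAR 2.5.1b was used by the authors to align reads to mm10, and uniquely mapped reads were counted per gene with HTSeq. The file names point to another counter, featureCounts, and also give the sequencing lanes. The strand setting and the annotation release are not given in the sources used here. The deposited values are raw counts per gene, 34711229 to 53365596 per mouse, one file for each of 12 samples, and groups came from the sample titles. Ensembl IDs were matched to GENCODE M21 (47310 of 47729).

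Counts were fitted with edgeR 4.0.16 in R 4.3.3 (filterByExpr with a minimum count of 10, TMM, quasi-likelihood test, 3 groups in 1 fit), with Benjamini-Hochberg adjustment over 16823 genes. The thresholds were 0.05 against Naive_vehicle and 0.1 between STAM groups. Log2 CPM used a prior count of 2. The script was tested on simulated counts. Named were the 10 genes in every comparison, of each other endothelial list up to 5 called genes (or the 2 with the smallest p), up to 2 called markers of each other cell type, and the 5 genes most like Stab2 and Plvap. Marco, Adgre1 and Clec4f beyond that rule were named because their count was small. The members and lists were chosen with earlier results of these data known. The labels do not say that a shared replicate number pairs mice, and same-numbered mice did not deviate together (mean r -0.0927). The study left out 1 I-BET151 library because its gene counts were low. The labels do not name it, so all 4 entered, and the STAM_treated results may include that library. STAM_treated mouse 3 had the lowest total count, 34711229, beside 35171038 in STAM_treated mouse 2. Alternatives were DESeq2 1.42.0, RLE scaling, other filters, the 2 groups alone, a replicate block, lane as covariate, each mouse left out, and 2 added after seeing the data (2 mice left out together, and scaling to 15 pan-endothelial genes).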

Additional observations from a re-analysis of the deposited data

Results flagged for a closer look

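Of 96 groups of 4 mice examined, 6 held 1 mouse set apart by Dixon's criterion at its 95% critical value, where chance flags about 1 in 20. In 4 of them Naive_vehicle mouse 1 was the high one. Its Stab1 was 135 CPM against 79.3 to 81.5 CPM in the other healthy mice, its Kdr 80.0 CPM against 57.0 to 60.9 CPM, its Bmp6 7.24 CPM against 5.52 to 5.75 CPM and its Icam1 18.2 CPM against 10.9 to 11.8 CPM. Without this mouse the log2 fold change of Stab1 in STAM_treated livers was 1.07 (edgeR adjusted p = 0.0177). The others were Egfl7 in STAM_treated mouse 3, at 67.1 CPM against 25.9 to 27.8 CPM, and Pdgfrb in STAM_vehicle mouse 1, the low one at 11.9 CPM against 20.1 to 21.6 CPM.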

How the results depend on the processing

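Of 1217 gene values under 21 alternatives, 1055 kept direction and side of the threshold, 108 lost a call, 20 gained one and 34, of genes not called, changed sign. Genes called over the whole table (main 1195 in STAM_vehicle against Naive_vehicle, 59 between STAM groups, 2546 in STAM_treated against Naive_vehicle) were 1892 and 268 with DESeq2 in the former 2, 742, 10 and 1573 with the replicate block, 37, 0 and 85 with lane as covariate, and 3879, 8 and 1262 with 2 groups alone; without the low-count filter there were 101 between STAM groups. Leaving out 1 mouse gave 546 to 3779, 13 to 403 and 1292 to 3731. Of the 10 genes, 0 were called with lane as covariate in either comparison with Naive_vehicle, 3 and 1 with 2 groups alone, 6 and 5 without 2 mice (Naive_vehicle 1 and STAM_treated 3), 1 in STAM_treated livers with the replicate block or panel scaling, and 0 to 3 and 1 to 2 with 1 mouse left out. The cause was not tested. Calls over all tested genes were not counted without the 2 mice, so the 6 and 5 cannot be read as particular to these genes. Leaving out STAM_treated mouse 3 alone gave 3779 calls over the whole table in STAM_vehicle against Naive_vehicle livers. The replicate block changed no other call of the 10 genes, and elsewhere it ended those of Angpt2, Selp and Clec4f in STAM_vehicle and of Bmp2, Pdgfrb and Krt7 in STAM_treated livers. Lane as covariate ended the calls of Bmp2, Angpt2, Selp, Icam1, Cd68 and Clec4f in STAM_vehicle livers. In STAM_treated livers it ended those of Bmp2, Bmp6, Vwf, Selp, Icam1, Cd68, Marco, Reln, Pdgfrb and Krt7. Panel scaling ended the calls of Angpt2, Selp, Icam1 and Clec4f (0.54, edgeR adjusted p = 0.159) in STAM_vehicle livers. It ended that of Krt7 in STAM_treated livers (0.689, edgeR adjusted p = 0.139). RLE scaling ended the call of Angpt2 in STAM_vehicle livers. With Pecam1 among the capillarization markers the index difference of STAM_treated minus Naive_vehicle was 0.246 (main 0.413).

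Signs changed as follows in STAM_vehicle against Naive_vehicle livers. Lane as covariate gave -0.0658 for Stab1, -0.306 for Stab2 and -0.435 for Fcgr2b, panel scaling -0.152 for Stab2 and -0.121 for Fcgr2b, and leaving out 2 mice 0.118 for Clec4g. Without 1 mouse Stab2 ranged from -0.0146 to 0.17, Clec4g from -0.134 to 0.12 and Fcgr2b from -0.00502 to 0.23. Between STAM groups, lane as covariate gave 0.0158 for Clec4g and 0.107 for Kdr, no filter -0.0047 for Fcgr2b, panel scaling 0.0619 for Lyve1, 0.044 for Kdr and 0.0377 for Pecam1, and leaving out 2 mice 0.195 for Lyve1, -0.11 for Fcgr2b, 0.0477 for Pecam1 and -0.154 for Cd34. Without 1 mouse the ranges were -0.312 to 0.205 for Lyve1, -0.0997 to 0.158 for Fcgr2b, -0.16 to 0.056 for Kdr, -0.175 to 0.0572 for Pecam1 and -0.145 to 0.17 for Cd34. In STAM_treated against Naive_vehicle livers, lane as covariate gave -0.233 for Fcgr2b and -0.0705 for Gata4, panel scaling -0.000445 for Fcgr2b, and leaving out 1 mouse -0.0503 to 0.254 for Fcgr2b and -0.00167 to 0.264 for Gata4. Depth limits Cd34 most, at 56 to 386 counts per mouse, and 4 mice a group limit all.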
